A study of Mus musculus with 12 samples.

Results

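Follicular (FO) B cells sorted from mouse spleen were stimulated for 12 h with CpG alone and compared with unstimulated FO B cells, with 3 samples in each group, so 6 of the 12 samples of the series entered the comparison and all 22561 genes of the count table were considered. Both groups came from C57BL6 mice that were 10 weeks old, and the labels name no deletion or transgene. CpG was ODN1826 at 1 μg/mL, a synthetic oligodeoxynucleotide, and the sorted cells were B220 high, AA4.1-, CD23+ and intermediate for CD21. The 3 samples stimulated for 12 h with IFNα alone, from the same experiment, are set beside the comparison, because the sources used here do not state whether the unstimulated cells were also kept in culture. An effect of culture and an effect of CpG therefore cannot be told apart in CpG compared with unstimulated cells. The labels number the samples of each group 1 to 3 without saying whether a number is a mouse, so the p-values measure the spread between these samples, which may be partly technical. The series also holds 3 samples stimulated for 12 h with CpG plus IFNα. They entered the filter on low counts and the joint fit described below, and their erythroid marker sums are given, but they were not compared here.

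CpG DNA is sensed by TLR9, a receptor that is carried to endosomes by the chaperone UNC93B1 and signals through MYD88 to NF-κB. FO B cells are small resting lymphocytes that recirculate between blood and lymphoid follicles, carry IgM and IgD, and present antigen on MHC class II. Once activated, such cells grow by building ribosomes, proteins and nucleotides before they divide, and some later become plasma cells.

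The libraries are of the BRB-seq kind (bulk RNA barcoding): reads come from the 3′ end of polyadenylated RNA and a unique molecular identifier (UMI) marks each molecule, so that counts do not grow with transcript length. Totals were between 922450 and 1103064 UMI counts in unstimulated samples and between 1393018 and 1985810 with CpG. Levels are given as normalized CPM (counts scaled to a common library total) after edgeR's TMM scaling. They are shares of a library, and in bulk samples fewer cells of a type and less RNA per cell cannot be told apart. A gene was called a DEG where edgeR's quasi-likelihood test gave an adjusted p (Benjamini-Hochberg) under 0.1 and the fold change on the log2 scale passed 1 in either direction. Of 9431 genes tested, 20.1% were up-regulated DEGs with CpG and 25.5% were down-regulated, and the median log2 fold change of all genes tested was -0.03. These percentages are the background for the counts of list members in CpG compared with unstimulated cells. The filter on low counts asked for 6.58 CPM in at least 3 of all 12 samples, and 8889 of the genes tested met it within the 6 samples compared here. The samples of both groups did not overlap for 6908 of the genes tested.

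The up-regulated DEGs took 10.7% of the normalized counts in unstimulated cells and 34.2% with CpG, whereas the down-regulated DEGs went from 35.2% to 8.77%. Among the down-regulated DEGs, 257 had at most 3 counts in each CpG sample, and among the up-regulated DEGs 97 had at most 3 counts in each unstimulated sample. For these the size of the fitted fold change depends on edgeR's prior count, and counts are given in place of a fold.

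**Figure D1:**
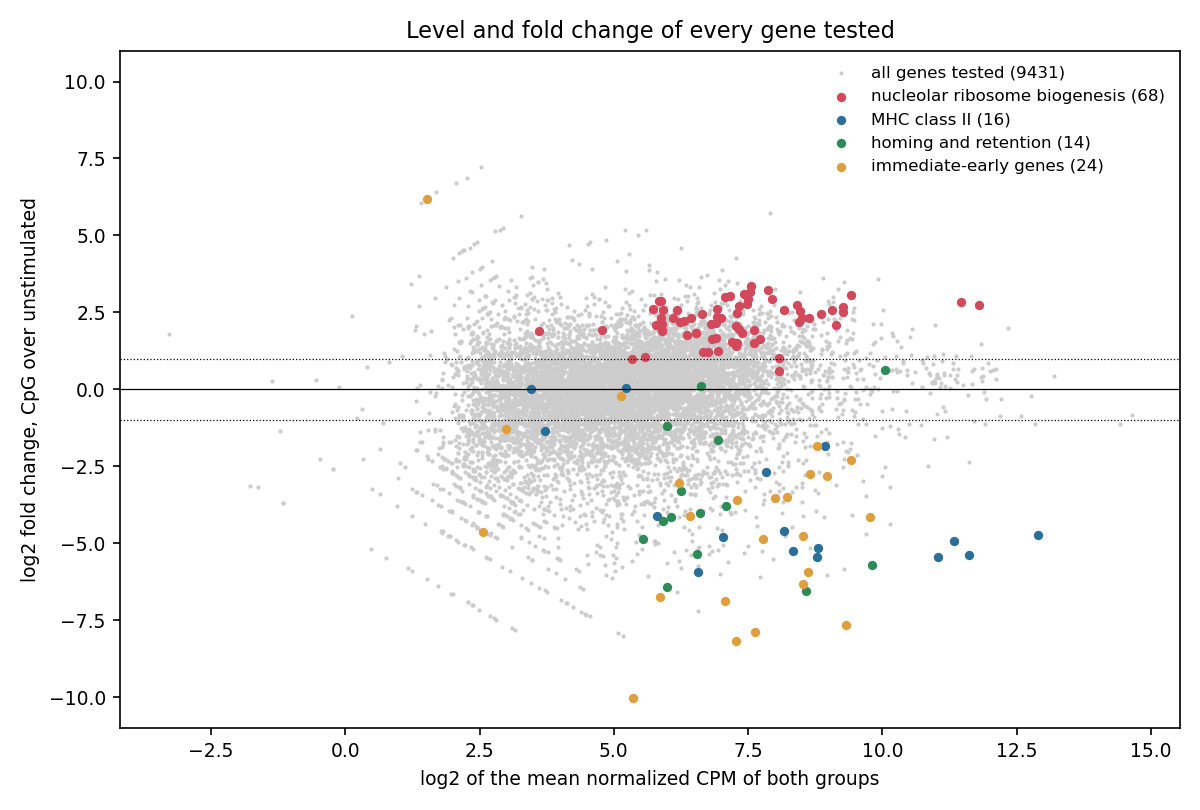
Log2 fold change of CpG over unstimulated cells (vertical axis) against the log2 of the mean normalized CPM of both groups (horizontal axis) for the 9431 genes tested, with members of 4 gene lists in color and dotted lines at a log2 fold change of 1 in either direction. Klf2, on the lists of homing and of immediate-early genes, is drawn with the homing genes only. The 68 nucleolar genes lie above 0, and 14 of the 16 MHC class II genes lie below -1, with Rfx5 and Rfxap near 0.

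The cells carried the defining transcripts of B cells in both groups. Cd79b, the signaling chain of the B cell receptor, had 1720, 2236 and 2130 CPM in the unstimulated samples and 237, 197 and 241 CPM with CpG, and Ighm had a mean of 7931 CPM in unstimulated cells and 4302 CPM with CpG. Cd3g, Cd8a and Cd8b1 of T cells, Ccr2 of myeloid cells and Siglech of plasmacytoid dendritic cells had 0 counts in all 6 samples. The 8 T cell markers in the table summed to between 30.9 and 43.9 CPM in unstimulated samples and between 4.28 and 9.98 CPM with CpG, nearly all of it from Lck. The 7 myeloid markers summed to between 5.30 and 24.6 CPM and between 0.713 and 3 CPM, and the 7 erythroid markers to between 58.2 and 345 CPM and between 4.99 and 60.8 CPM. All 4 erythroid genes tested, all of them globins, were down-regulated DEGs (median log2 fold change -2.80). In each of the 4 groups the erythroid sum was highest in the sample numbered 1 and lowest in that numbered 3. These sums moved with the groups, and their part in the results below was not tested. The 5 NK cell markers summed to between 3.53 and 5.35 CPM in unstimulated samples and at most 1.23 CPM with CpG, and the 5 markers of plasmacytoid dendritic cells to between 35.3 and 37.4 CPM and between 8.55 and 20.9 CPM, with Cox6a2 higher and Pacsin1 lower.

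MHC class II genes had the lowest median of the gene lists described here. Of 16 genes tested, 14 were down-regulated DEGs and 0 up-regulated, with a median log2 fold change of -4.76. Cd74, the invariant chain that guides class II molecules to endosomes, had 15727, 14538 and 13577 CPM in unstimulated samples and 705, 488 and 472 CPM with CpG. It was the most abundant member, and the lowest unstimulated sample stood far above the highest CpG sample. Its log2 fold change was -4.72 (standard error 0.16, adjusted p = 2.98e-22 by edgeR). H2-Ab1, the classical beta chain, had 5154, 5147 and 4709 CPM without stimulation and 191, 147 and 155 CPM with CpG, a log2 fold change of -4.93. The peptide-loading genes H2-DMa, H2-DMb1, H2-DMb2, H2-Oa and H2-Ob, which edit the peptides that class II molecules carry, had log2 fold changes between -4.81 and -5.93. These neighboring genes have similar sequences, and how the counting divided their reads was not tested.

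Ciita, the transactivator that class II promoters require, had 566, 495 and 594 CPM in unstimulated samples and 31.3, 20.7 and 17 CPM with CpG. No sample of one group came near those of the other, and its log2 fold change was -4.60 (standard error 0.17, adjusted p = 3.74e-21 by edgeR). Of the RFX complex that binds the same promoters, Rfxank fell (log2 fold change -1.35), while Rfx5 and Rfxap had log2 fold changes of 0.01 (standard error 0.39) and 0.04 (standard error 0.20) with overlapping samples. Ctss, the protease that trims the invariant chain, and Ifi30, a thiol reductase of the same compartment, fell by 1.85 and 2.69 on the log2 scale. With IFNα alone, Ciita had 531, 587 and 448 CPM, within the range of levels without stimulation or close to it. The whole list took 3.49% ± 0.141 (SD, n = 3) of UMI counts in unstimulated cells, 2.53% ± 0.236 (SD, n = 3) with IFNα and 0.139% ± 0.0164 (SD, n = 3) with CpG.

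The 150 bases before the start of H2-Aa (chr17:34287824-34287973, minus strand) and H2-Eb1 (chr17:34305717-34305866, plus strand) are shown because both genes were among the DEGs with the smallest p, at log2 fold changes of -5.38 and -5.45. They come from the RefSeq promoter table of GRCm38.p6 and run 5′ to 3′ on the strand of the gene, with CTGATTGG, the Y box of class II promoters, in capitals.
H2-Aa: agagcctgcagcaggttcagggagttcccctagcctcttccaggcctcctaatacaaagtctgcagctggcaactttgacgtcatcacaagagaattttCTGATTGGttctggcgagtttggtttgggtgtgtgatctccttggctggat
H2-Eb1: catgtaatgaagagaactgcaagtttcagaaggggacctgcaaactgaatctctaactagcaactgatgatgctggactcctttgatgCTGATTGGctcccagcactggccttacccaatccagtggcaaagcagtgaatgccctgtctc
The motif, chosen after the results were known, starts 51 bases before the start of H2-Aa and 62 bases before that of H2-Eb1. On either strand it was in 4 of the 13 windows (30.8%) of the 12 class II genes that matched the table, against 5.81% of the windows of all genes tested, 6.12% of those of up-regulated and 4.97% of those of down-regulated DEGs. Lists that were mostly up-regulated held it as well, with 8 of 32 windows (25%) for nucleotide synthesis and 6 of 37 (16.2%) for DNA replication, and so did 3 of 14 windows (21.4%) of cytokine genes. A match is a description of these letters and not a binding site.

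Genes that guide recirculation and retention of lymphocytes fell nearly as a block. Of 14 genes tested, 12 were down-regulated DEGs and 0 up-regulated (median log2 fold change -4.08). Klf2, the transcription factor that sustains S1pr1 and keeps lymphocytes quiescent, had 2340, 1377 and 1534 CPM and then 33.2, 37.1 and 30.0 CPM. S1pr1, the receptor that lets lymphocytes leave lymphoid organs, had 283, 118 and 145 CPM and then 9.21, 17.1 and 8.49 CPM, with replicate 1 the highest of the unstimulated samples for both genes. Gpr183, which places B cells at the outer follicle, and the chemokine receptors Ccr6, Cxcr4 and Cxcr5 had log2 fold changes of -5.36, -4.88, -3.80 and -1.66.

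Ccr7, the receptor for chemokines of the T cell zone, was 1 of the 2 genes in this list that were not called. Its level was 1081, 649 and 769 CPM without stimulation and 1372, 1362 and 1150 CPM with CpG, a log2 fold change of 0.63 that stayed under the fold threshold (adjusted p = 7.57e-05 by edgeR). Itgal, an integrin chain, was the other, with a log2 fold change of 0.09, whereas its partner Itgb2 and the gut homing chains Itga4 and Itgb7 fell. Fcer2a, which encodes the CD23 that was used to sort the cells, had 1118, 1454 and 1109 CPM before and 28.2, 17.8 and 18.0 CPM with CpG. The sort took place before the culture, and Fcer2a was also low with IFNα alone, at 303, 196 and 233 CPM.

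**Figure D2:**
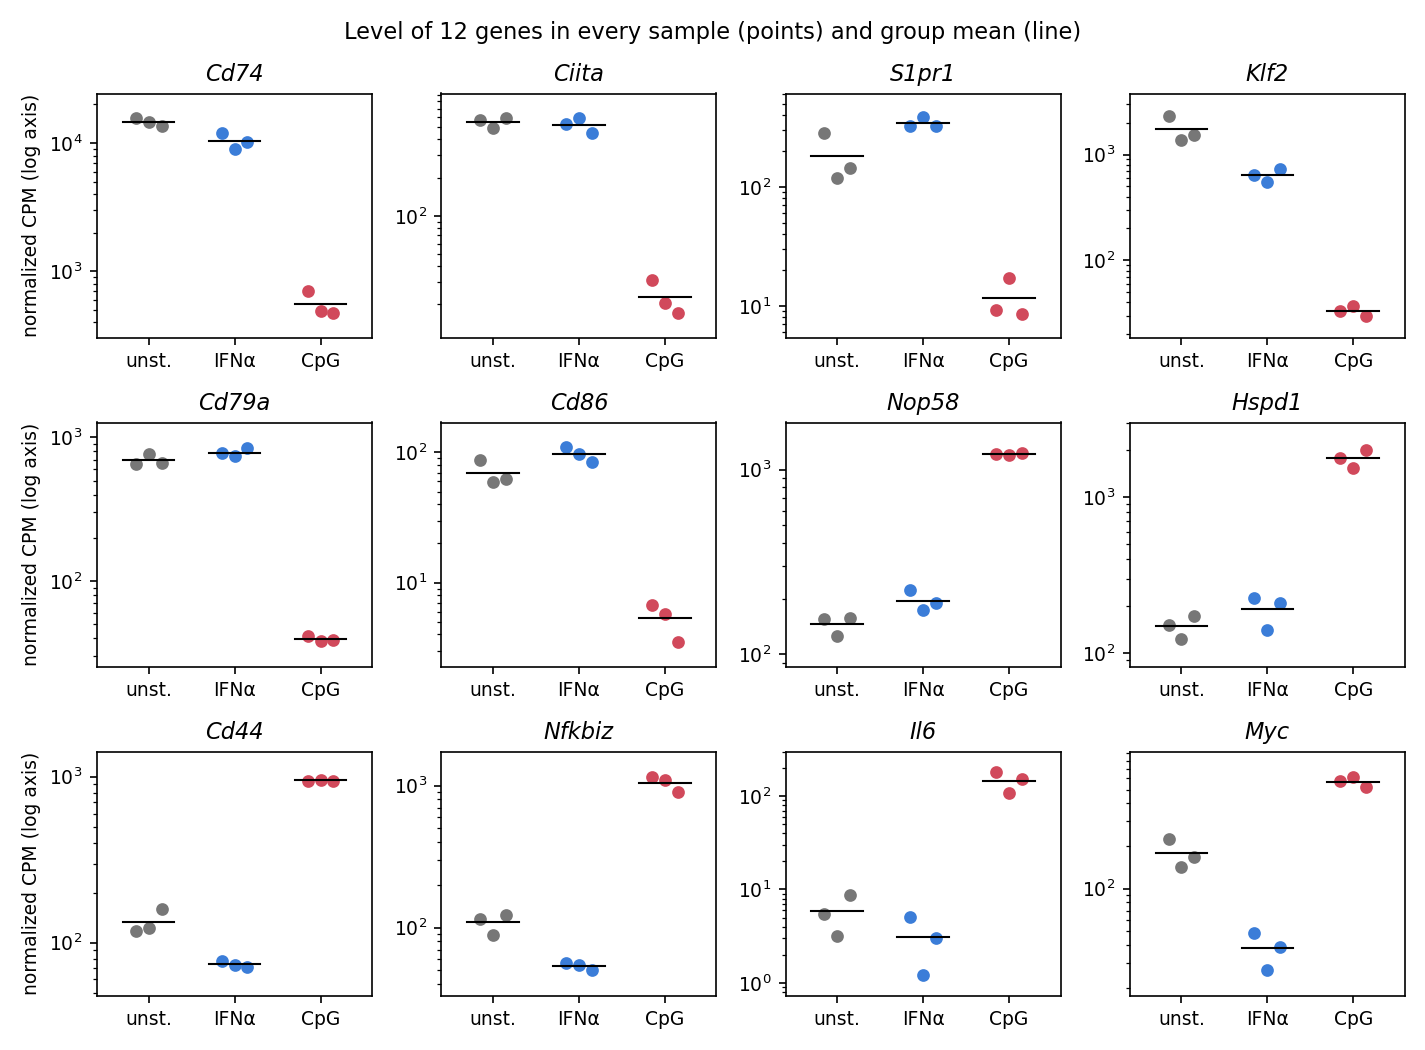
Normalized CPM on a log axis of 12 genes in every sample of unstimulated cells, IFNα and CpG, with a line at each group mean. In each panel the 3 CpG samples lie outside the range of the 3 unstimulated samples, below it for Cd74, Ciita, S1pr1, Klf2, Cd79a and Cd86 and above it for the other 6 genes.

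Components of the B cell receptor and its signaling chain were lower with CpG, with 16 of 24 genes tested down-regulated and 0 up-regulated (median log2 fold change -1.30). Cd79a, which pairs with CD79B under the receptor, had 651, 769 and 664 CPM and then 41.7, 38.5 and 38.9 CPM, and the log2 fold change was -4.12 (standard error 0.14). The kinases Blk, Syk, Btk and Lyn had log2 fold changes of -3.93, -1.51, -1.38 and -1.19, and Malt1, which links the receptor to NF-κB, had -2.83. Ighd fell by 1.60 on the log2 scale, and Ighm by 0.88, which is under the fold threshold. Blnk, the adaptor of the same pathway had a log2 fold change of -0.09.

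Receptors and phosphatases that restrain the B cell receptor fell as well, with 11 of 14 genes down-regulated and 0 up-regulated (median -2.54). Siglecg, an inhibitory lectin of B cells, had 390, 435 and 415 CPM and then 5.53, 5.70 and 6.49 CPM, and the 6 samples formed narrow groups with no overlap. Its log2 fold change was -6.10 (standard error 0.23, adjusted p = 5.32e-21 by edgeR). Cd22, a lectin of the same family, and the phosphatases Ptpn6 and Inpp5d had -3.37, -2.26 and -2.75, and the Fc receptor Fcgr2b had -0.84.

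Of 24 transcription factors of B cell identity tested, 16 were down-regulated DEGs and 0 up-regulated (median -1.52). At an adjusted p under 0.1 by edgeR with no fold threshold, 21 of the 24 were lower and 1, Runx3, was higher, by 0.32 on the log2 scale. By the same criterion 3618 of all 9431 genes tested were lower and 3444 higher. Ets1, which restrains plasma cell differentiation, had 1049, 1079 and 874 CPM and then 102, 141 and 108 CPM. It had the largest fold in the list, and the log2 fold change was -3.10 (standard error 0.13). Spib, Bcl11a, Ebf1 and Bach2 had log2 fold changes of -2.67, -2.54, -1.70 and -1.40. Pax5, the central factor of B cell identity, had 718, 666 and 657 CPM and then 395, 433 and 490 CPM, a log2 fold change of -0.63 without overlap but under the fold threshold. Irf8 had 743, 742 and 752 CPM and then 757, 634 and 719 CPM, with overlapping samples and a log2 fold change of -0.08.

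Of 10 genes of the plasma cell program tested at 12 h, 0 were up-regulated DEGs and 3 down-regulated, and 6 more were too low to test. Irf4, which drives both activation and plasma cell fate, had 257, 136 and 170 CPM and then 125, 132 and 126 CPM, with unstimulated replicate 1 the highest, and its log2 fold change of -0.57 was under the fold threshold. By qPCR, which was not used here, the paper reports a rise of Irf4 transcripts with CpG. The reason for this difference was not tested. Prdm1, the regulator of plasma cells, had 6, 1 and 7 counts in unstimulated samples and 4, 4 and 7 counts with CpG, and Jchain had 2, 10 and 2 counts and then 0 counts in each CpG sample. Sdc1, the plasma cell surface marker CD138, fell from a mean of 18.9 CPM to 1.79 CPM. At an adjusted p under 0.1 by edgeR with no fold threshold, 6 of the 10 were lower and 3 higher. Of all 9431 genes tested, 3618 were lower and 3444 higher by this criterion. The 3 higher genes were Mzb1, a chaperone of immunoglobulin assembly, Slamf7, a surface receptor of plasma cells, and Atf6, a sensor of unfolded proteins. They had log2 fold changes of 0.91, 0.77 and 0.74, all under the fold threshold and without overlap between the groups.

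Immediate-early genes, which are transcribed within minutes of a signal, were high in the unstimulated samples and low with CpG. Of 25 genes tested, 23 were down-regulated and 1 up-regulated (median -4.15). Zfp36, which encodes a protein that destabilizes cytokine mRNAs, had 733, 727 and 857 CPM and then 9.21, 11.4 and 16 CPM. Its groups did not come near each other, and the log2 fold change was -5.95 (standard error 0.16, adjusted p = 1.12e-24 by edgeR). Rgs1, a brake on chemokine receptor signaling, had 181, 37 and 47 counts in unstimulated samples and 0 in each CpG sample, which makes it at least 44.9-fold lower at a limit of 3 counts per library. Unstimulated replicate 1 was the highest, and without it the bound was 22.2-fold. Fos, the AP-1 subunit that often serves as the marker of recent stimulation, had 1457, 996 and 1604 counts without stimulation and 15, 7 and 9 counts with CpG, and Fosb, its close relative, had 387, 229 and 370 and then 2, 0 and 3. Atf3, which had 86.4, 10.7 and 15 CPM and then 33.8, 26.4 and 37.9 CPM, was the only gene tested in this list that was not a DEG, and its log2 fold change ran from -0.63 to 1.36 as single samples were left out, the latter without unstimulated replicate 1. Fosl1, another member of the AP-1 family, went the other way, from 0 counts in each unstimulated sample to a mean of 5.77 CPM, at least 2.02-fold higher. It met the filter on low counts only with groups not compared here. Of the 24 genes that met the filter within these 6 samples, 23 were down-regulated and 0 up-regulated.

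The same genes were mostly low with IFNα alone, where 21 of 25 were down-regulated and 0 up-regulated against the same unstimulated samples (median -2.61), beside 4.07% down-regulated and 4.56% up-regulated among all genes tested. Junb, an AP-1 subunit, had 1905, 1356 and 1716 CPM without stimulation, 103, 119 and 96.2 CPM with IFNα, and 100, 75.6 and 103 CPM with CpG. The samples of both stimulated groups overlapped, and the direct log2 fold change of CpG over IFNα was -0.19 (adjusted p = 0.324 by edgeR). Zfp36 instead had 261, 248 and 251 CPM with IFNα, and its direct log2 fold change was -4.34 (adjusted p = 3.39e-21 by edgeR). Over the whole list, 12 of 25 genes were down-regulated and 3 up-regulated in CpG compared with IFNα, beside 24.7% and 19.4% of all genes tested. All 3 comparisons share samples, so their values are given side by side only.

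**Figure D3:**
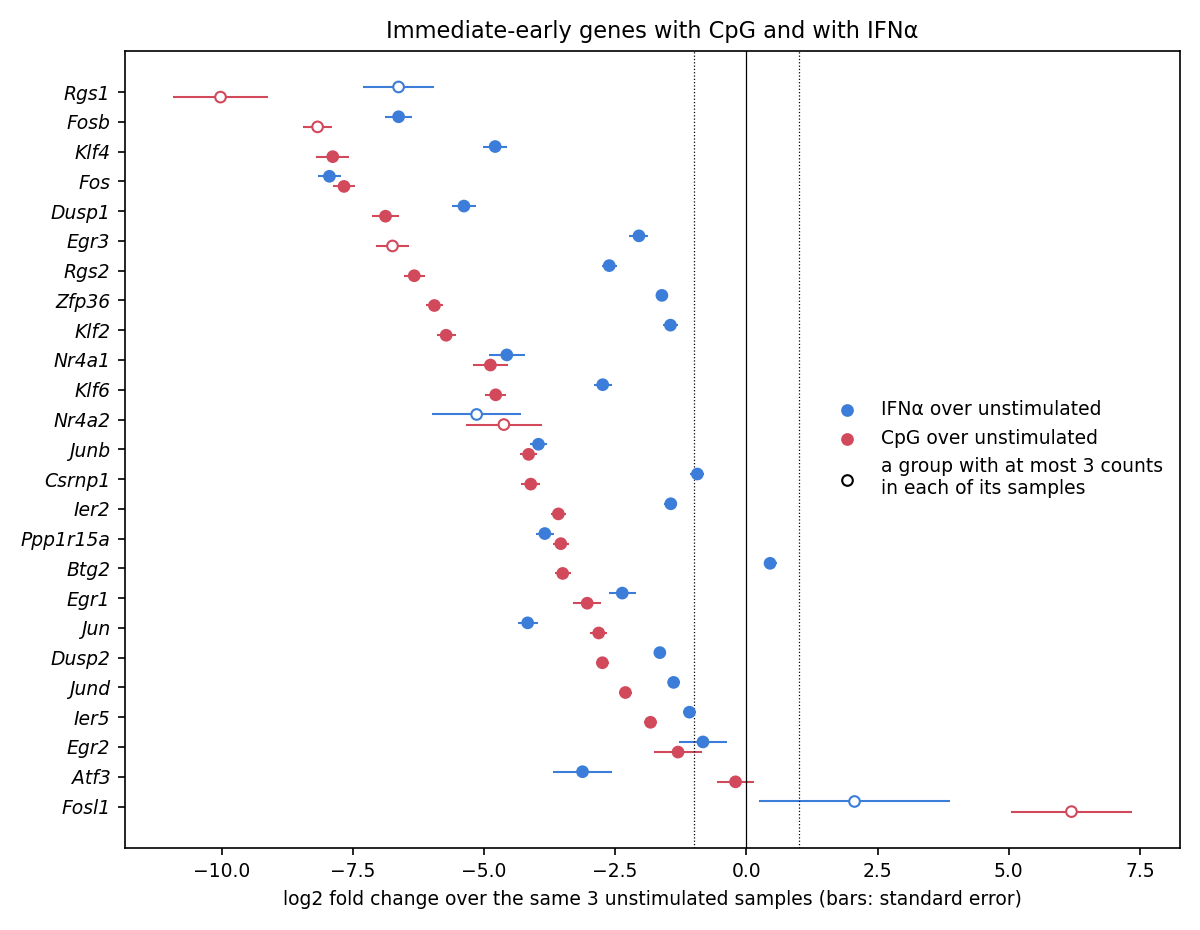
Log2 fold change, with its standard error, of the 25 immediate-early genes tested for IFNα and for CpG over the same 3 unstimulated samples. Open circles mark genes with no more than 3 counts in any sample of one group, for which the size depends on the prior count. Junb and Fos have nearly the same value for both stimuli, whereas Zfp36, Klf2 and Btg2 are far lower with CpG.

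Genes typical of resting lymphocytes were down-regulated in 23 of 26 cases and up-regulated in 0 (median -2.97). Btg1, an inhibitor of proliferation, had 1431, 1328 and 1161 CPM and then 81.7, 73.4 and 76.9 CPM. Txnip, which limits glucose uptake, had 568, 456 and 449 CPM and then 50.3, 46.3 and 50.4 CPM, without overlap. Tsc22d3 and Pik3ip1, which restrain NF-κB and PI3K signaling, had log2 fold changes of -5.15 and -4.97. In IFNα compared with unstimulated cells, 7 of the 26 were down-regulated and 2 up-regulated, beside 4.07% and 4.56% of all genes tested, and Txnip had a log2 fold change of -0.48.

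Of 49 interferon-stimulated genes tested, 38 were down-regulated with CpG alone and 0 up-regulated (median -1.93). However, 12 of the 49 passed the filter on low counts only through the groups with IFNα, and of the 37 that met it in unstimulated and CpG samples 29 were down-regulated (median -1.85). Parp12, Ifi44 and Oas1a had at most 4 counts in each of these 6 samples, so that their calls as down-regulated rest on counts near the limit of detection. Shisa5, which is named here for its small p and not as a list member, had 2017, 2286 and 2133 CPM without stimulation, 115, 102 and 90.4 CPM with CpG and 5345, 4539 and 5153 CPM with IFNα. Ifi203 fell from a mean of 329 to 41.8 CPM, and Samd9l from 205 to 21.9 CPM. Irf7, which drives interferon production after TLR9 signaling, fell from 61.4 to 12.1 CPM. Bst2 had a log2 fold change of 0.73 and did not pass the fold threshold. With IFNα, all 37 genes that met the filter without the IFNα groups were up-regulated. The other 12 were tested because they are high there, so that their calls as up-regulated are no separate result.

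MHC class I genes followed in part, with 13 of 20 down-regulated and 2 up-regulated (median -1.33). B2m, the light chain of class I molecules, had 4353, 4315 and 4689 CPM and then 2169, 2157 and 2238 CPM, a log2 fold change of -1.03 that was no longer past the fold threshold without CpG replicate 1 or 2. Psme2, a subunit of the proteasome activator PA28, was higher, with 177, 229 and 234 CPM and then 774, 715 and 664 CPM. Erap1, which trims peptides for class I, also rose (log2 fold change 1.20), and the peptide transporter subunits Tap1 and Tap2 fell by 1.59 and 1.39 on the log2 scale.

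Of 19 genes of TLR9 trafficking and signaling, 6 were down-regulated DEGs and 0 up-regulated (median -0.61), a share of down-regulated genes near the 25.5% of all genes tested. At an adjusted p under 0.1 by edgeR with no fold threshold, 13 of the 19 were lower and 3 higher. Of all 9431 genes tested, 3618 were lower and 3444 higher by the same criterion. The 3 higher members were Map3k7, Irak1 and Hsp90b1, with log2 fold changes of 0.64, 0.40 and 0.47. Map3k7 and Irak1 are kinases of the pathway and Hsp90b1 is a chaperone of TLRs. Tlr9 had 209, 226 and 226 CPM in unstimulated samples and 144, 190 and 151 CPM with CpG, which did not overlap but differed by only -0.45 on the log2 scale (SE 0.13, adjusted p = 0.00219 by edgeR). With IFNα it had 497, 441 and 578 CPM. Unc93b1 fell by 1.1 on the log2 scale, a call that was lost without unstimulated replicate 2, and Slc15a4, an endosomal transporter that TLR9 responses need, by 2.37 on the log2 scale, while Myd88 had a log2 fold change of -0.32.

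Members of the NF-κB system were split. Of 20 genes tested, 2 were up-regulated and 7 down-regulated (median -0.34). Nfkbiz, which encodes the nuclear cofactor IκBζ that is induced by TLR signals, had 115, 88.8 and 123 CPM and then 1142, 1101 and 903 CPM. Nfkbib, a cytoplasmic inhibitor, rose by a log2 fold change of 1.23, and the subunit Nfkb1 had 0.92, under the fold threshold. Rel, the NF-κB subunit most active in B cells, had 399, 294 and 316 CPM and then 95.2, 110 and 107 CPM, and Map3k14, the kinase of the alternative pathway, had 48.2, 70.6 and 60.0 CPM and then 6.14, 5.70 and 8.99 CPM. Both were lower in every CpG sample than in any unstimulated one. Nfkbia, which holds NF-κB in the cytoplasm, had a log2 fold change of 0.39.

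Of 25 cytokine and chemokine genes, 12 were too low to test, 5 were up-regulated and 6 down-regulated. The median log2 fold change of the 13 tested was -0.77. Of the 11 that met the filter on low counts within the 6 samples compared, 5 were up-regulated and 5 down-regulated (median 0.65). Il6, a cytokine of activated B cells, had 5.46, 3.21 and 8.82 CPM without stimulation and 180, 109 and 151 CPM with CpG. Its log2 fold change was 4.60 (standard error 0.27, adjusted p = 4.16e-16 by edgeR), the largest rise of the list. Ccl3, a chemokine for monocytes and T cells, had 26.4, 3.21 and 14.1 CPM and then 327, 308 and 248 CPM, and its close relative Ccl4 had 27.3, 5.35 and 6.18 CPM and then 67.5, 59.2 and 45.9 CPM. Unstimulated replicate 1 was the highest of its group for both chemokines, yet below every CpG sample. Without that sample the log2 fold change of Ccl3 was 5.01 in place of 4.28 and that of Ccl4 was 3.30 in place of 2.10.

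Tnf rose from a mean of 6.19 to 31.7 CPM and Il10, the regulatory cytokine, from 3.02 to 9.98 CPM, a log2 fold change of 1.64 (adjusted p = 0.00631 by edgeR) that was 2.67 without unstimulated replicate 3. Ltb, the membrane lymphotoxin chain that organizes follicles, moved the other way, with 910, 951 and 1102 CPM and then 19.0, 15.7 and 11.5 CPM. Its partner Lta and the cytokines Il16 and Tgfb1 also fell. Il12b had counts of 0, 0 and 0 in unstimulated samples and 0, 2 and 1 with CpG, and Il23a had 0, 0 and 0 and then 0, 0 and 1, so neither could be measured at this depth.

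The 150 bases before the start of Il6 (chr5:30012964-30013113, plus strand, RefSeq, GRCm38.p6) are shown because Il6 had the largest rise among the cytokines, with the match to the κB consensus in capitals.
Il6: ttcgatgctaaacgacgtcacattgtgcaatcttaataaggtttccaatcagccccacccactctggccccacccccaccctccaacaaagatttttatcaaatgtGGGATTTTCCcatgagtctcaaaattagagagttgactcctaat
The match starts 44 bases before the start of the gene. The κB consensus on either strand was in 7 of 14 windows (50%) of the cytokine genes tested and in 11 of 23 windows (47.8%) of the NF-κB genes, against 10.3% of the windows of all genes tested. It was in 8.56% of the windows of up-regulated and 11.6% of those of down-regulated DEGs. Ltb and Rel, both down-regulated, also held a match.

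Surface genes of activation and costimulation were mixed, with 5 of 21 tested up-regulated and 8 down-regulated (median -0.42). Of the 20 that met the filter on low counts within the 6 samples compared, 4 were up-regulated and 8 down-regulated (median -0.57). Cd44, an adhesion receptor that marks activated lymphocytes, had 117, 123 and 161 CPM and then 948, 959 and 947 CPM, and the CpG samples were within a narrow range far above the others. Its log2 fold change was 2.83 (standard error 0.12, adjusted p = 1.09e-19 by edgeR). Slc7a5, the light chain of the large amino acid transporter, had 12.7, 8.56 and 20.3 CPM and then 160, 153 and 133 CPM, and Tfrc, the transferrin receptor, rose from a mean of 48.5 to 180 CPM. Il2ra rose from 4.8 to 20.3 CPM.

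Cd86, a CD28 ligand, had 87.4, 58.8 and 62.7 CPM and then 6.75, 5.70 and 3.49 CPM. It fell by 3.74 on the log2 scale (SE 0.26, adjusted p = 2.03e-14 by edgeR). Cd80, the other CD28 ligand, had 0, 1 and 1 counts in unstimulated samples and 3, 15 and 9 counts with CpG. It was called up-regulated at this level near the limit of detection, but met the filter on low counts only with groups not compared here. Cd69, an early activation antigen, had 548, 442 and 456 CPM and then 62.6, 60.6 and 50.9 CPM, and with IFNα 176, 165 and 162 CPM. Cd40 and Cd83 had overlapping samples and log2 fold changes of -0.07 and -0.42, and Icosl, the ligand of ICOS, fell by 2.89 on the log2 scale.

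**Figure D4:**
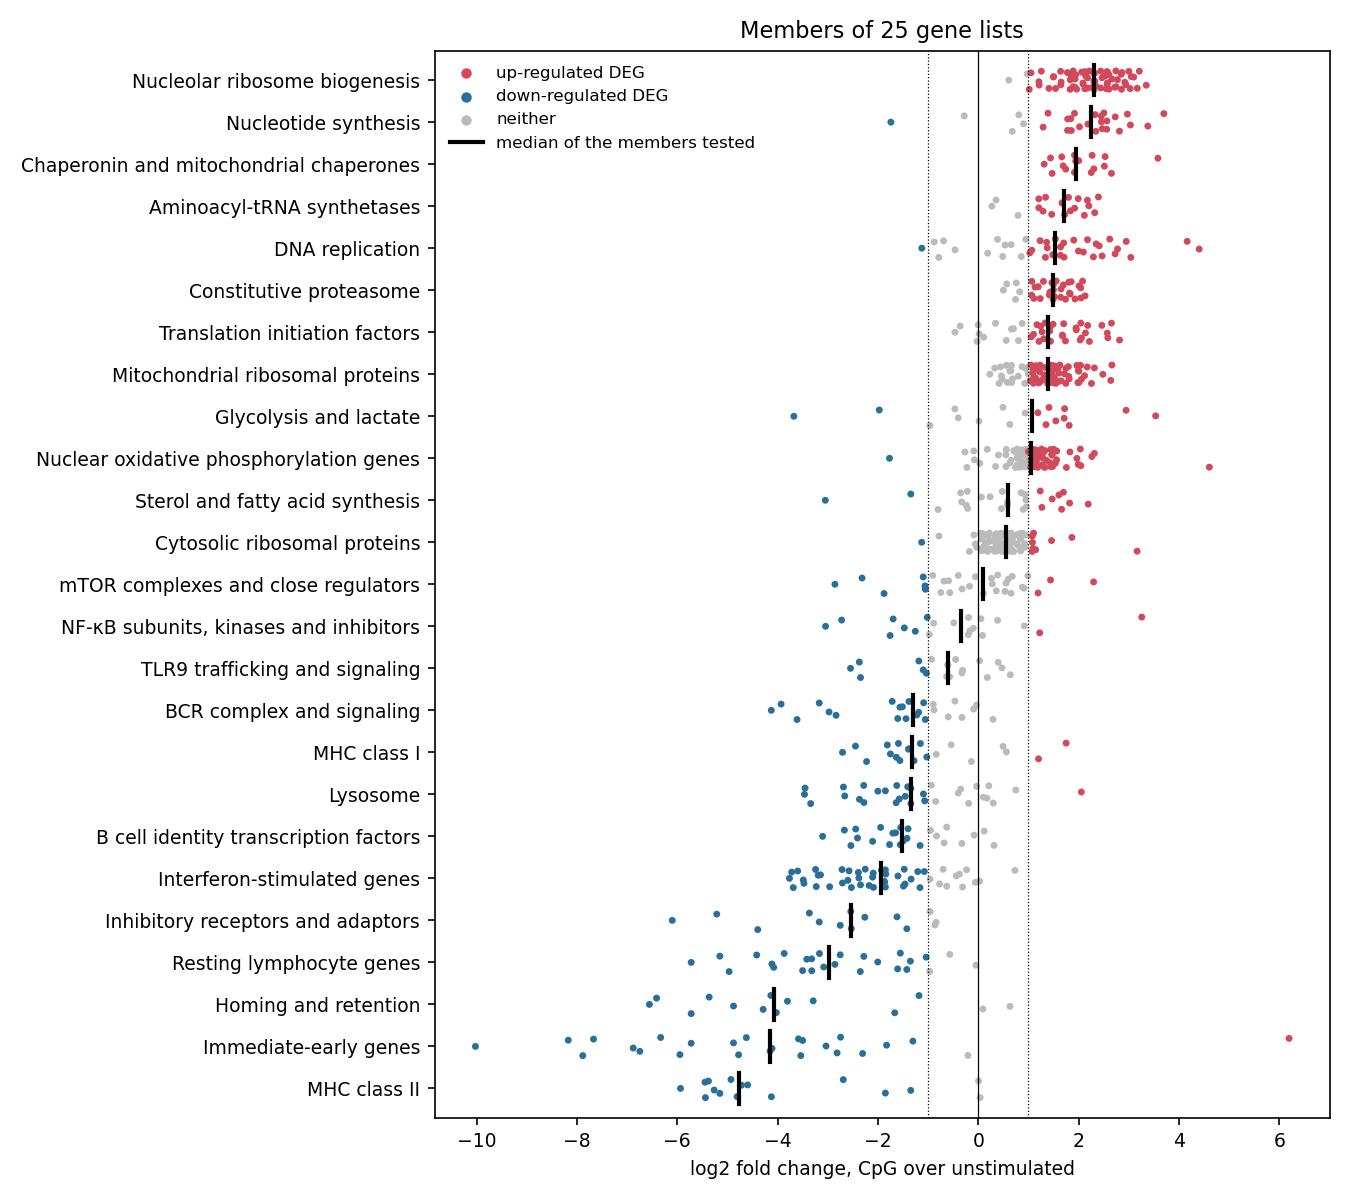
Log2 fold change of CpG over unstimulated cells for every tested member of 25 gene lists, colored by call, with a black bar at the median of each list and dotted lines at 1 in either direction. Lists of growth and biosynthesis lie to the right of 0 and lists of antigen presentation, homing and rest to the left, with medians from -4.76 for MHC class II to 2.30 for nucleolar ribosome biogenesis.

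Genes of nucleolar ribosome biogenesis were up-regulated nearly throughout. Of 68 genes tested, 66 were up-regulated DEGs and 0 down-regulated, with a median log2 fold change of 2.30. The exceptions, Tcof1 and Ddx51, had log2 fold changes of 0.61 and 0.98. Nop58, a core protein of the box C/D particles that methylate rRNA, had 155, 125 and 158 CPM and then 1208, 1202 and 1233 CPM. Its samples were tightly grouped with CpG, and the log2 fold change was 3.05 (standard error 0.13, adjusted p = 1.23e-19 by edgeR).

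Ncl and Npm1, abundant nucleolar proteins, had means of 923 and 689 CPM and then 6195 and 4973 CPM. Pno1, an assembly factor of the small subunit, had 41.9, 47.1 and 46.8 CPM and then 453, 428 and 377 CPM, and Rrp1b, a nucleolar protein of rRNA processing, had 39.1, 33.2 and 28.2 CPM and then 334, 323 and 367 CPM. Polr1a and Ubtf, which transcribe rRNA genes, had smaller log2 fold changes of 1.22 and 1.02, and Ubtf was no longer called without unstimulated replicate 3. The list took 0.595% ± 0.0644 (SD, n = 3) of UMI counts in unstimulated cells, 0.665% ± 0.0641 (SD, n = 3) with IFNα and 3.13% ± 0.0395 (SD, n = 3) with CpG.

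Myc, the transcription factor that drives ribosome biogenesis, had 225, 143 and 168 CPM without stimulation, 572, 610 and 520 CPM with CpG and 48.4, 26.8 and 38.9 CPM with IFNα. Its log2 fold change was 1.66 over unstimulated cells (standard error 0.14, adjusted p = 2.94e-12) and 3.94 over IFNα (adjusted p = 7.09e-20), both by edgeR. Of 9 genes of the Myc network tested, Myc was the only up-regulated DEG, and 4 were down-regulated, or 2 without CpG replicate 1 or without unstimulated replicate 1. Mxd4, an antagonist of MYC, had 67.3, 81.3 and 107 CPM and then 6.75, 3.56 and 7.99 CPM, and the partner Max had a log2 fold change of 0.43.

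The 150 bases before the starts of Nop2 (chr6:125131733-125131882, plus strand), an rRNA methyltransferase, and Nol11 (chr11:107189382-107189531, minus strand), a factor of rRNA transcription and processing, are shown as nucleolar genes with CACGTG, the E box that MYC and MAX can bind, in capitals (RefSeq, GRCm38.p6).
Nop2: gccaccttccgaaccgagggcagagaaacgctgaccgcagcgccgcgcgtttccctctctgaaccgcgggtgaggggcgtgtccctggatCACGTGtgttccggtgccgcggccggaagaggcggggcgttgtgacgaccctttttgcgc
Nol11: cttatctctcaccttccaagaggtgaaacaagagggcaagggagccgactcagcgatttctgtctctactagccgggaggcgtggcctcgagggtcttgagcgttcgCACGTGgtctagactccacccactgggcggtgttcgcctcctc
Nop2 rose by a log2 fold change of 2.72 and Nol11 by 2.22. CACGTG was in 16 of 69 windows (23.2%) of the 59 nucleolar genes that matched the table, in 14.1% of the windows of up-regulated DEGs, 9.41% of those of down-regulated DEGs and 11% of those of all genes tested. Ncl and Nop58 had no match in their windows. Among mostly down-regulated lists, CACGTG was in 5 of 27 windows (18.5%) of immediate-early genes. It was in 1 of 13 (7.69%) for MHC class II and 1 of 46 (2.17%) for interferon-stimulated genes. Nucleotide synthesis, mostly up-regulated, had it in 5 of 32 (15.6%) and DNA replication in 4 of 37 (10.8%).

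Many genes of translation rose too. Of 42 initiation factors tested, 30 were up-regulated and 0 down-regulated (median 1.40). Eif4a1, the helicase that unwinds mRNA leaders, had 295, 260 and 331 CPM and then 1917, 1731 and 1630 CPM, and Eif4e, which binds the mRNA cap, had 30.0, 16 and 32.6 CPM and then 167, 159 and 156 CPM. Of 20 aminoacyl-tRNA synthetases, 17 were up-regulated and 0 down-regulated (median 1.70), led by Iars and Gars at log2 fold changes of 2.4 and 2.32.

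Cytosolic ribosomal protein genes, in contrast, moved by less than the fold threshold in most cases, with 9 of 79 up-regulated and 1 down-regulated (median 0.56). This share of up-regulated genes is under the 20.1% of all genes. Rps2 rose by a log2 fold change of 1.46, and Rps27 had 1991, 1997 and 1908 CPM and then 950, 907 and 843 CPM, a fall of 1.13 on the log2 scale. Its paralog Rps27l, a target of p53, rose instead, with 65.5, 72.7 and 75.0 CPM and then 674, 661 and 584 CPM. Reads that fit both copies could have been divided between them, so the levels of this pair are uncertain. All cytosolic ribosomal protein genes together took 12.4% ± 0.416 (SD, n = 3) of UMI counts in unstimulated cells and 17.2% ± 1 (SD, n = 3) with CpG.

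Many nuclear genes for mitochondrial proteins were up-regulated. Of 75 mitochondrial ribosomal protein genes 57 were up-regulated and 0 down-regulated (median 1.39), and of 79 nuclear genes of oxidative phosphorylation 44 were up-regulated and 1 down-regulated (median 1.06). Atp5b, the catalytic chain of ATP synthase, rose from a mean of 510 to 1814 CPM, and Cycs, which encodes cytochrome c, from 25.7 to 123 CPM. The genes of the mitochondrial genome were not up-regulated, with 0 of 10 up-regulated, 2 down-regulated and a median of -0.83. Without CpG replicate 3, 4 were down-regulated. mt-Co1, a subunit of complex IV, had 1901, 1960 and 1739 CPM and then 584, 717 and 744 CPM, and with IFNα 962, 1230 and 1125 CPM. These transcripts took 3.08% ± 0.236 (SD, n = 3) of UMI counts in unstimulated cells and 1.98% ± 0.258 (SD, n = 3) with CpG.

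**Figure D5:**
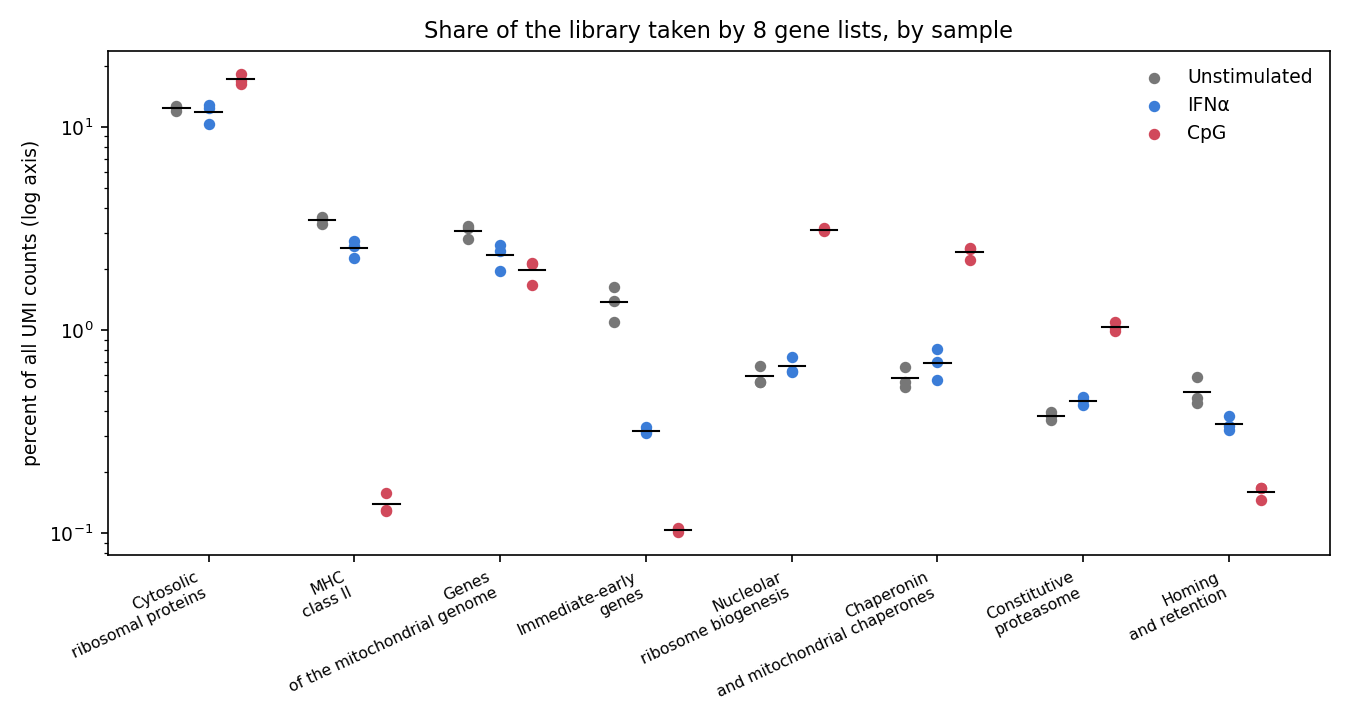
Percent of all UMI counts (log axis) taken by 8 gene lists in each sample of unstimulated cells, IFNα and CpG, with a line at each group mean. MHC class II falls from 3.49% to 0.139% with CpG, and nucleolar genes rise from 0.595% to 3.13%. IFNα samples lie near the unstimulated ones for nucleolar genes and below them, at a mean of 2.53%, for MHC class II.

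Genes of protein folding and turnover differed by group. All 17 chaperonin and mitochondrial chaperone genes were up-regulated (median 1.94). Hspd1, the mitochondrial chaperonin, had 150, 122 and 173 CPM and then 1793, 1540 and 2021 CPM, which is 3.58 higher on the log2 scale (SE 0.16, adjusted p = 5.83e-19 by edgeR). Hsp90ab1, a cytosolic chaperone, was among the most abundant genes, with 2059, 1785 and 2384 CPM and then 8809, 7760 and 8416 CPM. Of 34 genes of the constitutive proteasome, 29 were up-regulated and 0 down-regulated (median 1.5), whereas Psmb8, Psmb9 and Psmb10 of the immunoproteasome had log2 fold changes of -0.54, -1.75 and -0.84. Genes of folding and export in the endoplasmic reticulum had 9 of 36 up-regulated and 3 down-regulated (median 0.55), and the chaperone Hspa5 had a log2 fold change of 0.49.

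Nucleotide synthesis was among the lists with the largest median, with 23 of 28 genes up-regulated and 1 down-regulated (median 2.26). Uck2, a uridine-cytidine kinase, had 14.6, 9.63 and 20.3 CPM and then 204, 187 and 201 CPM, which is 3.70 higher on the log2 scale (SE 0.18, adjusted p = 3.89e-18 by edgeR). Mthfd2, a mitochondrial enzyme of one-carbon metabolism, and Ctps, which makes CTP, rose by log2 fold changes of 3.38 and 3.03. Ctps2, the other CTP synthase, fell by 1.74 on the log2 scale.

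In glycolysis 9 of 18 genes were up-regulated and 2 down-regulated (median 1.06). Of the hexokinases, Hk2 had 12.7, 9.63 and 12.4 CPM and then 145, 126 and 137 CPM, while Hk1 fell from a mean of 35.6 to 9.48 CPM. Slc16a1, a lactate transporter, rose by a log2 fold change of 2.95 and Ldha, which makes lactate, by 1.81, and the glucose transporter Slc2a1 had -0.47. Of 27 genes of sterol and fatty acid synthesis, 8 were up-regulated and 2 down-regulated (median 0.58). Fasn, the fatty acid synthase, rose from a mean of 41.2 to 188 CPM, and the desaturase Scd1 fell from 649 to 77.7 CPM. With IFNα, 11 of these 27 genes were up-regulated, beside 4.56% of all genes tested in that comparison.

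Genes of cell cycle entry moved in both directions. Of 16 genes of G1 control 6 were up-regulated and 4 down-regulated. Ccnd2, the main D cyclin of B cells, rose from a mean of 208 to 585 CPM, and its kinases Cdk4 and Cdk6 rose by log2 fold changes of 1.97 and 2.53. The inhibitor Cdkn1b fell from a mean of 378 to 78.0 CPM, and Cdkn2d had 57, 58 and 47 counts and then 2, 3 and 2. Cdkn1a, the inhibitor p21 that p53 induces, rose instead, with 10.0, 2.14 and 13.2 CPM and then 75.5, 135 and 95.4 CPM.

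DNA replication genes were up-regulated in 27 of 39 cases and down-regulated in 1 (median 1.54). Tyms, which makes thymidylate, had 3.64, 2.14 and 4.41 CPM and then 70.6, 68.4 and 84.9 CPM, and the helicase loader Cdc6 had at most 1 count in each unstimulated sample and a mean of 12.6 CPM with CpG. GCGGGAAA, a motif that E2F factors can bind, was in 6 of 37 windows (16.2%) of these genes, against 2.2% of the windows of all genes tested. It was in 2.66% of the windows of up-regulated and 1.3% of those of down-regulated DEGs. Nucleotide synthesis had it in 2 of 32 windows (6.25%) and cytokine genes in 1 of 14 (7.14%). A match is not a binding site. Of 25 mitotic genes 10 were too low to test, 8 were up-regulated and 1 was down-regulated, and a fit to the 6 samples alone called 3 up-regulated. Of the 15 tested, 4 passed the filter on low counts only with the groups not compared here, and 6 of the other 11 were up-regulated. Mki67, a marker of cycling cells, was called with overlapping samples, at 4.55, 7.49 and 2.65 CPM and then 6.75, 20 and 35.4 CPM, and its log2 fold change of 2.15 was 1.46 without CpG replicate 3. The mitotic regulators Plk1 and Ccnb1 had at most 8 counts in any of the 6 samples.

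Of 19 p53 targets 10 were up-regulated and 4 down-regulated (median 1.15). Trp53 itself, which is in this list, rose from a mean of 167 to 554 CPM, and Bax, an effector of cell death, from 84.2 to 435 CPM. Mdm2, which restrains p53, had a log2 fold change of 0.13, and Sesn1 and Pmaip1 fell by 2.86 and 2.37 on the log2 scale, the latter by 1.78 without unstimulated replicate 1. In the BCL2 family, 5 of 14 genes were up-regulated and 3 down-regulated. The survival genes Bcl2a1d and Bcl2l1 rose from means of 9.47 to 115 CPM and from 9.96 to 67.8 CPM, although copies of Bcl2a1 are nearly identical and share reads. Mcl1, another survival gene, fell by 1.3 and Bmf, which promotes death, by 2.87 on the log2 scale, and Bcl2 had a log2 fold change of 0.12.

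Genes of B cell receptor editing and class switching were up-regulated in 6 of 11 cases and down-regulated in 0 (median 1.17). Batf, a factor that class switching needs, had 16.4, 27.8 and 22.9 CPM and then 287, 232 and 252 CPM, and Ung, which removes uracil from switch regions, rose by a log2 fold change of 2.27. Of the 10 constant region genes of immunoglobulins tested, 2 were up-regulated and 4 down-regulated. Ighg2b, named after its values were seen, had 26.4, 19.3 and 25.6 CPM and then 208, 195 and 228 CPM, and Ighg2c had 1.82, 0 and 3.53 CPM and then 17.8, 15.7 and 15.5 CPM. Ighg3 had a log2 fold change of 0.33. The counts cannot tell germline transcripts from those of switched cells, and these genes have similar sequences.

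Lysosomal genes fell in 19 of 31 cases and rose in 1 (median -1.34). Laptm5, a lysosomal membrane protein of lymphocytes, had 1546, 1526 and 1499 CPM and then 118, 129 and 165 CPM, while Grn, a lysosomal growth factor precursor, rose from a mean of 70.0 to 292 CPM. Tfeb, which activates lysosomal genes, fell by 2.28 on the log2 scale. Of 8 GIMAP GTPases, which sustain lymphocyte survival, 5 were down-regulated and 0 up-regulated (median -1.52), with Gimap9 at a log2 fold change of 0.76.

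Few transcripts of the mTOR complexes and their close regulators were called, with 3 of 31 up-regulated and 6 down-regulated (median 0.11). Without CpG replicate 3, 5 were up-regulated and the median was -0.04. Mtor had 23.7, 31.0 and 34.4 CPM and then 30.1, 26.4 and 37.9 CPM, with overlapping samples and a difference of 0.10 on the log2 scale (SE 0.21). Tsc1, an inhibitor of mTORC1, had 46.4, 42.8 and 44.1 CPM and then 22.1, 20.7 and 27.5 CPM, a log2 fold change of -0.91 without overlap and under the fold threshold, and Rps6 had 0.65. Sesn1, Slc38a9 and Ddit4 fell by 2.86, 2.32 and 1.88 on the log2 scale, and Eif4ebp1, a target of mTORC1 that restrains translation, rose by 1.44.

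Among the up-regulated DEGs with the smallest p, Pim2, a survival kinase, and C1qbp, a mitochondrial matrix protein, rose by log2 fold changes of 3.25 and 3.01. Ybx3, a cold shock protein, had 97.4, 105 and 107 CPM and then 1123, 1269 and 1053 CPM.

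Among the largest rises, Utf1, a chromatin factor of pluripotent cells, had 4.55, 0 and 2.65 CPM and then 103, 91.2 and 89.9 CPM, and Slc7a3, a transporter of cationic amino acids, had 1.82, 1.07 and 4.41 CPM and then 88.4, 90.5 and 76.4 CPM. Rnd3, an atypical small GTPase, had 2 counts in each unstimulated sample and 117, 98 and 148 with CpG, and Cebpd, a transcription factor of inflammation, had 2 in each and then 92, 56 and 143. Chac1, a glutathione-degrading enzyme of the ATF4 response, had 0 counts in each unstimulated sample and 23, 9 and 28 with CpG, at least 4.02-fold higher.

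Gm12576, Dnph1, Adm and Ikzf4 were also among the largest rises, each with at most 1 count in any unstimulated sample and between 10 and 42 counts with CpG. On the other side, Gsn, which severs actin filaments, had 71, 78 and 62 counts and then 0, 0 and 1, and Cacna1i, a calcium channel subunit, had 79, 70 and 78 and then 0, 0 and 1. Klf4, a factor of quiescence, had 520, 268 and 390 CPM and then 0.614, 3.56 and 0.998 CPM. H2bc4, Nod1, BC051537 and Cyp27a1 had between 11 and 22 counts in each unstimulated sample and 0 in each CpG sample.

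The calls were also counted by gene class. Of 8710 protein-coding genes tested, 20.4% were up-regulated and 24.4% down-regulated, whereas among 157 genes of the TEC class, whose transcripts are still to be tested by experiment, 3.82% were up-regulated and 70.1% down-regulated. Of 19 sense intronic transcripts 12 were down-regulated and 1 up-regulated, of 82 antisense genes 45 and 9, and of 80 lincRNAs 36 and 14. These differences between classes were not tested. Malat1, an abundant nuclear RNA, had 2974, 2640 and 3742 CPM and then 403, 640 and 620 CPM, and its neighbor Neat1 fell from a mean of 119 to 7.89 CPM, both named after their values were seen. Among 220 processed pseudogenes, 61 were up-regulated and 14 down-regulated, and their reads may belong to parent genes with nearly the same sequence.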

How the data were processed

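RNA of 12 samples was measured by BRB sequencing, and the 6 samples of CpG and unstimulated cells were compared. The deposited values are whole-number counts of molecules for each gene, which the authors had not scaled. By the paper's methods and the submitters' processing notes, barcodes were extracted with UMI-tools 1.1.2, reads were trimmed with Trim Galore 0.6.7, mapped to GRCm38 with HISAT2 2.2.1 and assigned with featureCounts 2.0.1, with Tlr9 extended by 3 kb. The annotation release is not given in the sources used here. All 22561 identifiers are in GENCODE M21, which gave names and positions.

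TMM factors were computed with edgeR 4.0.16 (R 4.3.3), which kept 9431 genes by filterByExpr and fitted the 4 groups together with glmQLFit and glmQLFTest, so that all samples share an estimate of the spread (8 residual degrees of freedom). Adjusted p-values are Benjamini-Hochberg values over these genes. Within a group, every pair of samples differed beyond sampling noise (chi-square divided by its degrees of freedom, 2.02 to 7.00). Separate preparations from the same mouse could differ in this way too, so these values do not show that the samples are independent. Each sample was counted as its own replicate. DESeq2 1.42.0, other scalings, filters and thresholds were alternatives.

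The gene lists, the motifs and the rule for named genes were chosen with earlier results of these data known. Named genes are the 10 DEGs in each direction with the smallest p and the 10 with the largest fold change at a mean of 10 CPM or more in the higher group, both without overlap between groups, then list members, and genes the study names. Promoter windows of 300 bases (250 before the start) matched 7234 of the genes tested. The barcode list, flow cytometry and qPCR were not used here. Some genes that the rule names are not reported here.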

Additional observations from a re-analysis of the deposited data

How the results depend on the processing

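Both counts of DEGs kept to within 1.5 times the reported 1898 and 2405 under every alternative but the threshold of 2 on the log2 fold change, which by its construction left 539 up-regulated and 1138 down-regulated. DESeq2 called 1996 and 2958 and gave no adjusted p for 6704 genes. Leaving out 1 sample at a time gave 1911 to 2022 up-regulated and 2445 to 2619 down-regulated DEGs. Upper quartile factors shifted the median log2 fold change of all genes to -0.136 and gave 1664 and 2614 DEGs. Adding the replicate block gave 1898 and 2407, of which 1895 and 2399 were DEGs without it. Deviations of same-numbered samples correlated at -0.013, -0.01 and 0.047, so the numbers were not taken to pair samples, and only the samples numbered 3 correlated best with their own number. The erythroid markers kept the same order of numbers in all 4 groups, with 345, 159 and 58.2 CPM in unstimulated samples 1 to 3, 336, 86.3 and 15.3 CPM with IFNα, 60.8, 18.5 and 4.99 CPM with CpG and 72, 22.8 and 5.65 CPM with both, and the labels do not say whether a number marks a shared mouse or preparation. Over 44 gene lists, 72 of 1670 counts of DEGs moved by over 1.5 times, 39 of them with the threshold of 2 on the log2 fold change and 12 with 1 sample left out. Of 835 list medians, 68 moved by more than the spread between samples, 16 of them with upper quartile factors and 29 with 1 sample left out. The medians of 3 lists changed sign. That of cytokines and chemokines, -0.77, was 0.13 without unstimulated replicate 3 and 0.58 with at least 10 counts, that of mTOR regulators was -0.0033 with upper quartile factors, and that of plasmacytoid dendritic cell markers rested on 2 genes. Up-regulated cytosolic ribosomal protein genes were 4 in place of 9 with upper quartile factors. Genes near 0 changed sign. Rfx5 had log2 fold changes of -0.029 with DESeq2 size factors, -0.10 with upper quartile factors, -0.015 with library size only, -0.062 with at least 10 counts per sample, -0.00019 in DESeq2, -0.022 in the 6 samples alone and -0.018 without mitochondrial and rRNA genes. Rfxap had -0.071 with upper quartile factors and -0.031 with at least 10 counts, and Mtor had -0.0033 and Itgal -0.014 with upper quartile factors. Itgal had -0.19 after thinning every library to the lowest total. Leaving out 1 sample gave ranges of -0.18 to 0.29 for Rfx5, -0.13 to 0.28 for Rfxap, -0.044 to 0.24 for Mtor, -0.17 to 0.017 for Cd40, -0.12 to 0.019 for Irf8 and -0.63 to 1.36 for Atf3. Ddx51 passed the fold threshold without CpG replicate 2 or 3 or unstimulated replicate 2 or 3, Nfkb1 and Tsc1 passed it without CpG replicate 3, and Mzb1 without unstimulated replicate 2. The cause of these sign changes was not tested. At these depths 3 counts corresponded to between 2.72 and 3.25 CPM in unstimulated samples and between 1.51 and 2.15 CPM with CpG.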
